A study of Mus musculus with 18 samples.

Results

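Purine synthesis and salvage enzymes were described by 9 genes of the metabolic panel: Prps1, Ppat, Gart, Impdh1, Impdh2, Gmps, Hprt, Aprt and Pnp, out of 768 panel genes. These genes were selected by symbol, with earlier results of these data known. The samples were 18 tumors of the TUBO line, mammary carcinoma cells of the mouse that carry the HER2/neu oncogene, grown in female BALB/c mice. They fell into 8 groups, formed by 2 kinds of tumor crossed with 4 arms. Treated tumors were sampled from mice given HER2 DC1 dendritic cells into the tumor together with a blocking antibody to semaphorin 4D (3 samples), HER2 DC1 alone (2 samples), the antibody alone (2 samples) or no treatment (2 samples), and untreated tumors were sampled from the same 4 arms with the same numbers. Treatment lasted 3 weeks and all mice carried the same tumor line. The ages of the mice, which tumor of an untreated mouse counted as treated, and whether samples of a group came from separate mice are not stated in these sources, so p-values measure the spread between these samples only. Treated and untreated tumors of an arm may also share mice, and the fit took all samples as independent. The tumors were bulk tissue, in which fewer cells of a type and less RNA per cell cannot be told apart. No epithelial marker of the list used was on the panel, so the labelled tumor tissue could not be checked against one.

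Purine nucleotides can be built from small precursors or recovered from free bases. In the building route, PRPP synthetase (Prps1) makes the activated ribose phosphate, amidophosphoribosyltransferase (Ppat) commits it to purine synthesis, and the multifunctional enzyme Gart carries out several early steps on the way to IMP. IMP dehydrogenases (Impdh1 and Impdh2) and GMP synthetase (Gmps) convert IMP to GMP. Hprt recovers hypoxanthine and guanine, Aprt recovers adenine, and purine nucleoside phosphorylase (Pnp) releases bases from nucleosides. Proliferating tumor cells and activated lymphocytes both draw on these routes.

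The promoter windows of the 3 enzymes that passed the test in at least 1 comparison are shown here because the groups differed in their transcript levels. Each window runs from 250 bases before to 50 after the RefSeq transcription start, written 5′ to 3′ on the strand of the gene, with GC boxes (GGGCGG on either strand) and CCAAT boxes (CCAAT on either strand) in capitals. The windows, from RefSeq on GRCm38.p6, were chr3:63975893-63976192 on the plus strand for Gmps, chrX:140456353-140456652 on the plus strand for Prps1 and chr16:91646923-91647222 on the minus strand for Gart. The window of Gmps starts from a transcript that begins 12510 bases inside the annotated gene.
Gmps: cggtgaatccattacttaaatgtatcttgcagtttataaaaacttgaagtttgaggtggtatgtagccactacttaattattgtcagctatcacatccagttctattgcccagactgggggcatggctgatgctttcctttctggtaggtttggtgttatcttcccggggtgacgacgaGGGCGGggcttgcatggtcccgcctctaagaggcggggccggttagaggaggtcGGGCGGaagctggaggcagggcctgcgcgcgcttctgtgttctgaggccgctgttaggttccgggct
Prps1: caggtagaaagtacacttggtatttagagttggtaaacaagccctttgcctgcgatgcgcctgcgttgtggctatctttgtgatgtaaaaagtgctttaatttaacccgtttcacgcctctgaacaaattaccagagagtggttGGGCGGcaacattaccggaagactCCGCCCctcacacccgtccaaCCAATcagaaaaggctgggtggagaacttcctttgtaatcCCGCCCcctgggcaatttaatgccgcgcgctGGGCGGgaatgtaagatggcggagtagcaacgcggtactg
Gart: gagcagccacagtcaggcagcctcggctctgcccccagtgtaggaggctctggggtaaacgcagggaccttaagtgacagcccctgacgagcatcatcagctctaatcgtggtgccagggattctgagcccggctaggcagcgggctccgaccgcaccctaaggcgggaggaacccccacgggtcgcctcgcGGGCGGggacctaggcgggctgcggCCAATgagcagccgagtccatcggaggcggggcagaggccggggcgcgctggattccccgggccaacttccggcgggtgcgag
The window of Gmps held 2 GC boxes, that of Prps1 4 and that of Gart 1. A CCAAT box stood at position -61 in Prps1 and at -33 in Gart, counted from the start site, and these letters did not occur in the window of Gmps. Across the promoters of RefSeq, 35.7% of 32851 windows of this length held a GC box and 37.4% a CCAAT box, and 50.5% of the windows of panel genes held a GC box. All 9 enzymes had a window and all held a GC box. The E-box CACGTG, searched on both strands and present in 7.15% of all windows, occurred only in Impdh2 among the 9, at -110. The E2F letters TTTCCCGC or TTTGGCGC, present in 1.56% of all windows, occurred only in Ppat, at -211 and -158. These matches describe letters and not binding.

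Values are deposited log2(scaled count + 1). A sample's limit of detection was its negative-control mean plus 2 SD, on the scale of its panel genes, and lay between 4.95 and 5.85 on this log2 scale. Samples held 203509 to 989308 panel counts before scaling, with replicate 2 of untreated-tumor control (203509) and replicate 1 of untreated-tumor DC1 (238079) well under the next lowest (596177). Of the 9 members, 8 exceeded the limit in every sample. Pnp was at or below it in all 18 samples, with 4 to 18 counts before scaling, so that Pnp has only a bound and no fold is given for it. Probe sets differ in efficiency, and levels of different enzymes are therefore not ranked against each other. Group differences were fitted with limma over all 768 genes and 18 samples, and a gene passed at a Benjamini-Hochberg adjusted p under 0.05. In the combination arm most panel genes were higher than in control on the deposited scale, with a median difference of 0.54 in treated tumors and 0.45 in untreated tumors.

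**Figure D1:**
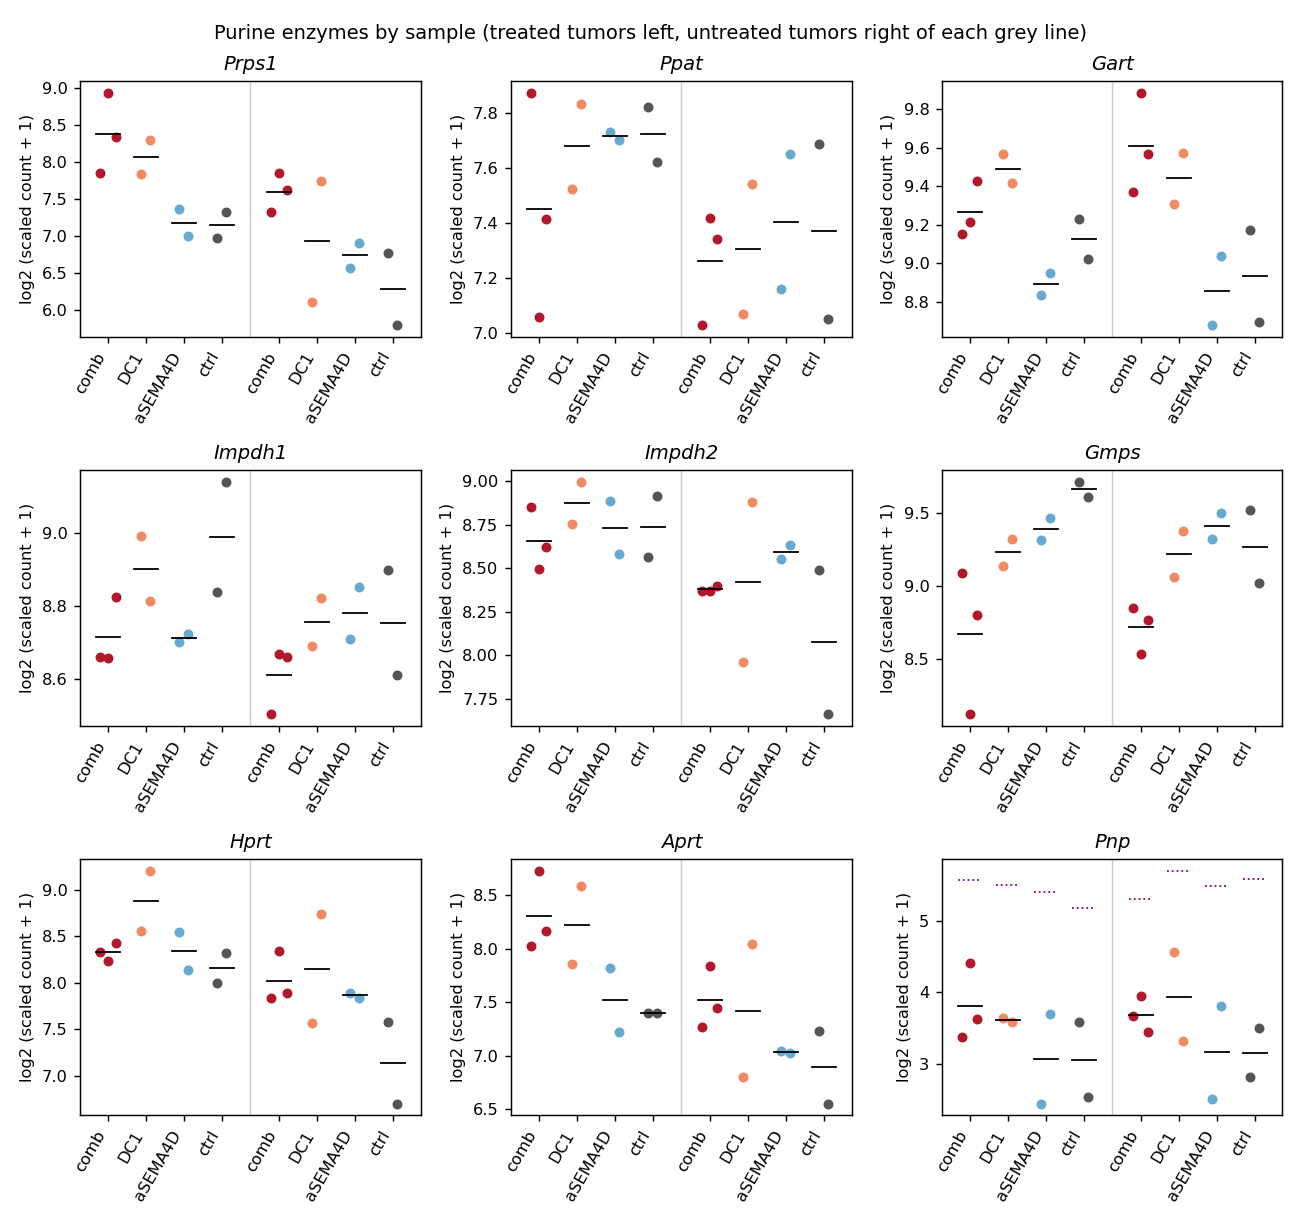
Deposited log2 (scaled count + 1) of the 9 enzymes in each of the 18 samples, with 1 point per sample and a black line at the group mean (comb, combination; ctrl, control). Treated tumors are left and untreated tumors right of the grey line. Gmps is lowest and Prps1 highest in the combination groups within each kind of tumor, and every Pnp point lies under the purple dotted lines, which are the group means of the detection limit.

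In treated tumors, the combination was set against control to ask how the purine enzymes stood after both agents. Gmps, which makes GMP, fell and Prps1, which supplies the activated ribose, rose, while the other 7 enzymes did not pass. Thus 2 of 9 members passed, where 38.8% of all panel genes did. They were 1 higher, against 35.4% of panel genes, and 1 lower, against 3.39%. At an unadjusted p under 0.05 there were 3 of 9 members and 366 of the 768 panel genes. The median difference of the members, with Pnp at or below the limit among them, was 0.14, against 0.54 for all genes tested.

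Gmps stood at 9.09, 8.12 and 8.80 (log2) in the combination-treated tumors, against 9.72 and 9.61 in treated-tumor control. All 3 combination samples lay below both controls, as 10.7% of panel genes did in that direction. The means were 8.67 ± 0.50 (SD, n = 3) in the combination and 9.66 ± 0.07 (SD, n = 2) in control, a log2 difference of -0.99 (SE 0.26, 95% interval -1.56 to -0.43) with a limma adjusted p of 0.0106. This is a combination-to-control ratio of 0.503. The call was lost without control replicate 1 (-0.94, limma adjusted p = 0.0785) or control replicate 2 (-1.04, limma adjusted p = 0.0568), each of which leaves 1 control sample assumed to vary like the other groups.

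Prps1 stood at 7.86, 8.94 and 8.35 in the combination-treated tumors, against 6.98 and 7.32 in control. No combination sample overlapped the controls, as was so for 55.6% of panel genes in that direction. The log2 difference was 1.23 (SE 0.45, 95% interval 0.26 to 2.20), a ratio of 2.35 with a limma adjusted p of 0.0446. Set against the panel median, the difference of Prps1 was 0.70 and that of Gmps -1.53. When each sample was centred on the median of its detected genes, Prps1 no longer passed (0.76, limma adjusted p = 0.118), nor when centred on 20 housekeeping genes (0.97, limma adjusted p = 0.0717). Its call was also lost when any 1 of 13 of the 18 samples was left out, with the highest limma adjusted p (0.215, difference 1.06) without control replicate 1. It was kept without combination-treated replicate 1 or without any of the 4 samples of untreated-tumor DC1 and control.

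The salvage enzyme Aprt had a pattern close to that of Prps1, at 8.03, 8.72 and 8.16 in the combination-treated tumors, against 7.40 in both controls. The samples did not overlap, as for 55.6% of panel genes in that direction, and the log2 difference of 0.91 (SE 0.37) did not pass (limma adjusted p = 0.0692). It passed without both samples of low depth and without either untreated-tumor DC1 sample, but none of these samples is in the groups compared. The difference stayed at 0.91, and only the shared estimate of spread changed (SE 0.29 and 0.31). With scaled and whole-number columns blocked, Aprt also passed (1.07, limma adjusted p = 0.0378). After median centring it differed by 0.43 (limma adjusted p = 0.294) and after housekeeping centring by 0.64 (limma adjusted p = 0.146). The other salvage enzyme above detection, Hprt, differed by 0.17 (95% interval -0.58 to 0.92), and its samples overlapped those of control. Among the remaining building enzymes, Gart differed by 0.14 (-0.33 to 0.60), Ppat by -0.27 (-0.88 to 0.33) and Impdh2 by -0.08 (-0.70 to 0.53), each with overlapping samples. These intervals leave room for changes in either direction.

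Impdh1, 1 of the pair of IMP dehydrogenases, stood at 8.66, 8.66 and 8.83 in the combination-treated tumors, against 8.84 and 9.14 in control. The samples did not overlap, as for 10.7% of panel genes in that direction. The log2 difference was -0.28 (SE 0.17, limma adjusted p = 0.220) on the deposited scale. It passed on both other scalings, with -0.75 (limma adjusted p = 0.00626) after median centring and -0.54 (limma adjusted p = 0.0228) after housekeeping centring. Gmps passed on both as well, with -1.47 (limma adjusted p = 0.00428) and -1.26 (limma adjusted p = 0.00421). Ppat passed after median centring only (-0.75, limma adjusted p = 0.0456). More panel genes passed as lower on both centred scales than on the deposited scale, with the counts given at the end. The sign of Gart and of Hprt, neither of which passed, turned to negative on both centred scales.

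**Figure D2:**
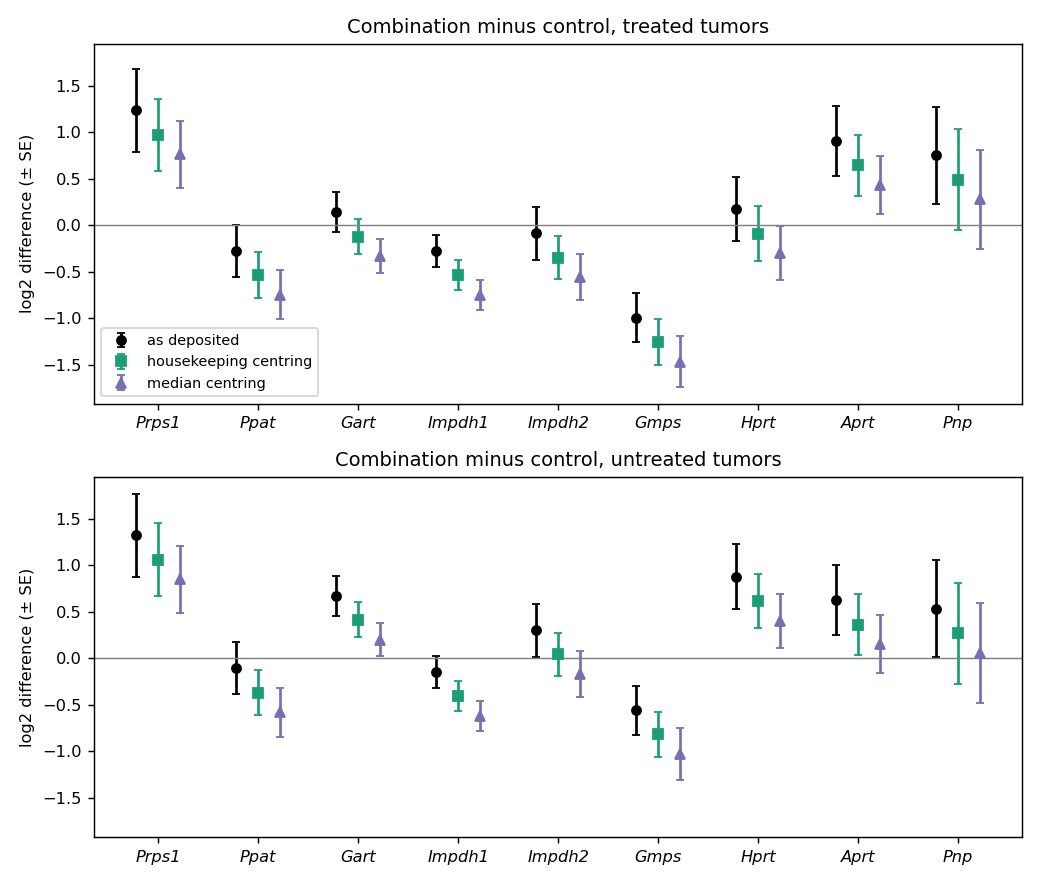
Log2 difference of combination minus control for each enzyme, in treated tumors (upper panel) and untreated tumors (lower panel), with bars of 1 SE, on the deposited scale, after housekeeping centring and after median centring. Gmps lies at -0.99, -1.26 and -1.47 in treated tumors on the 3 scales, while Gart and Hprt there cross zero.

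Markers of other cells differed between the same groups. The counts below stand beside the 35.4% of all panel genes that passed as higher in this comparison. Of 13 T cell markers on the panel, 10 passed as higher in the combination-treated tumors than in control, and their summed linear level was 1133 to 3978 in the combination samples and 379 to 381 in control. In control 9 of the 13 were at or below the limit in both samples. The defining cytotoxic markers Cd8a and Cd8b1 were at or below the limit in every sample of both groups. Of 5 macrophage and monocyte markers 3 passed as higher, with sums of 7826 to 11914 in the combination and 5532 to 7119 in control. Both fibroblast and endothelial markers on the panel, Pdgfrb and Flt1, passed as higher on all 3 scales, with sums of 158.5 to 596 in the combination and 48.5 to 71 in control, where both were at or below the limit. Of 3 adipocyte and muscle markers 2 passed as higher (Pparg, at or below the limit in control, and Pgam2, at or below it in both groups), with sums of 224.9 to 532 in the combination and 135 to 271 in control. Of 3 B cell markers 1 passed as higher (Blk), but it was at or below the limit in both groups and passed on neither centred scale. The B cell sums overlapped, at 21.3 to 119.9 in the combination and 32.3 to 65 in control. Of 5 neutrophil and mast cell markers 1 passed as higher (Csf3r), and the 1 dendritic cell marker did not pass. Replicate 2 of the combination-treated tumors had the lowest Gmps and the highest Prps1 and Aprt of its group, and it also had the highest T cell marker sum (3978, against 1133 in replicate 1 and 1938 in replicate 3). Panel counts before scaling were 844996 to 909415 in the combination and 624529 to 738233 in control. The part of these markers in the Gmps and Prps1 results was not tested. With depth as a covariate Gmps differed by -1.07 (limma adjusted p = 0.00762) and Prps1 by 0.93 (limma adjusted p = 0.0259).

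The next comparisons asked how the single agents stood in treated tumors. With DC1 alone, Prps1 was at 7.84 and 8.30, against 6.98 and 7.32 in control, and the log2 difference of 0.92 (SE 0.49) did not pass (limma adjusted p = 0.390). Hprt reached its highest level there, at 8.56 and 9.20 with DC1 and 7.99 and 8.32 in control, with a difference of 0.72 (SE 0.38, limma adjusted p = 0.389). With the antibody alone Prps1 stood at 7.36 and 7.00, and differed from control by 0.03 on average. None of the 9 members passed against control with either agent, and none of the 768 panel genes did in limma, with 109 (DC1) and 11 (antibody) of them at an unadjusted p under 0.05. All 3 comparisons with control share the same 2 control samples.

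The combination was then set against each agent. Against the antibody alone Gmps again passed as lower, at 9.09, 8.12 and 8.80 in the combination and 9.32 and 9.47 with the antibody (difference -0.72, SE 0.26, limma adjusted p = 0.0452). It was 1 of 9 members past the threshold, where 36.8% of panel genes passed and 2.34% passed as lower, and all 3 combination samples lay below both antibody samples, as for 7.94% of panel genes. Prps1 did not pass there (1.20, SE 0.45, limma adjusted p = 0.0508), although its samples did not overlap, as for 52% of panel genes in that direction. The Gmps call was lost when any 1 of 13 of the 18 samples was left out, and with combination replicate 2 left out the difference was -0.45 (limma adjusted p = 0.157). It was kept without combination replicate 1 or any of the 4 samples of untreated-tumor DC1 and control. Against DC1 alone no member passed, where 1.82% of panel genes did, and Gmps, at 9.14 and 9.33 with DC1, differed by -0.56 (95% interval -1.13 to 0.00) without overlap, as for 14.3% of panel genes in that direction. The interaction of the agents, which asks whether the combination differs from the sum of both single effects, passed for no member (lowest limma adjusted p 0.596). For Prps1 the interaction was 0.28 (95% interval -1.16 to 1.72), so that its size is hardly bounded.

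In untreated tumors the combination was set against control in the same way. Gart, the multifunctional enzyme of the building route, was the 1 of 9 members that passed, as higher, where 16.8% of panel genes passed and 15.8% passed as higher. Prps1, Hprt and Aprt had higher means and Gmps a lower mean without passing. The members' median difference was 0.53, against 0.45 for all genes tested. That median is the value of Pnp, which was at or below the limit in every sample, so no excess over all genes is read from it. The detected members on either side of it were Impdh2 (0.30) and Aprt (0.63).

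Gart stood at 9.37, 9.88 and 9.57 in the untreated tumors of the combination arm, against 9.17 and 8.69 in those of control. The groups did not overlap, as was so for 47.9% of panel genes in that direction. The log2 difference was 0.68 (SE 0.22, 95% interval 0.21 to 1.14), a ratio of 1.60 with a limma adjusted p of 0.0498. The lower control sample was replicate 2, the sample with the fewest counts, and without it the difference was 0.44 (limma adjusted p = 0.385), while without both samples of low depth it was 0.44 (limma adjusted p = 0.330). After median centring Gart differed by 0.20 (limma adjusted p = 0.511), and the call was lost without any 1 of 12 of the 18 samples. It was kept without untreated-tumor combination replicate 1, control replicate 1 or either DC1 sample, and without treated-tumor combination replicate 1 or 2.

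Gart also passed against the antibody alone, which stood at 8.68 and 9.04 in untreated tumors, by 0.75 (SE 0.22, limma adjusted p = 0.0405). It was the 1 of 9 members to pass there, where 12.5% of panel genes did and 12.1% as higher, and its samples did not overlap, as for 50.5% of panel genes in that direction. The samples of low depth were in neither of these groups. Leaving both out therefore could not change the difference (0.75), only the shared estimate of spread, and does not test the part of depth. Left out 1 at a time, 11 of the 18 samples ended the call, and without antibody replicate 1 the difference was 0.57 (limma adjusted p = 0.337). The call was also lost after median centring, where the difference was 0.37 (limma adjusted p = 0.227), after housekeeping centring (0.64, limma adjusted p = 0.0557), with a replicate block (0.72, limma adjusted p = 0.0931) and with only the groups compared (limma adjusted p = 0.0799). The samples that did not end it were untreated-tumor combination replicate 1, treated-tumor combination replicates 1 and 2, and the 4 samples of untreated-tumor DC1 and control. With DC1 alone Gart stood at 9.31 and 9.57, a difference from control of 0.51 (SE 0.24) that did not pass (limma adjusted p = 0.516). No member passed between the combination and DC1 in untreated tumors, where no panel gene passed in limma and 136 had an unadjusted p under 0.05, and none passed for either agent alone against control. The interaction of the agents passed for no member in untreated tumors either (lowest limma adjusted p 0.810).

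Prps1 stood at 7.33, 7.85 and 7.63 in the combination arm's untreated tumors, against 6.77 and 5.79 in control, a difference of 1.32 (SE 0.45, limma adjusted p = 0.0581). Hprt was at 7.84, 8.34 and 7.89 in the combination arm and at 7.58 and 6.70 in control, a difference of 0.88 (SE 0.35, limma adjusted p = 0.0872). Neither overlapped, as for 47.9% of panel genes in that direction, and neither passed. The lower control value of each came from the sample with the fewest counts. Without both samples of low depth the differences were 0.83 (limma adjusted p = 0.263) for Prps1 and 0.44 (limma adjusted p = 0.399) for Hprt.

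Gmps in untreated tumors stood at 8.85, 8.54 and 8.77 in the combination arm, against 9.52 and 9.02 in control. All 3 combination samples lay below both controls, as for 7.81% of panel genes in that direction, with a difference of -0.56 (SE 0.26, limma adjusted p = 0.138). After median centring it passed (-1.03, limma adjusted p = 0.0447), as did Impdh1 (-0.62, limma adjusted p = 0.0414). More panel genes passed as lower there than on the deposited scale, with the counts given at the end. After housekeeping centring Gmps was at -0.82 (limma adjusted p = 0.0628) and Impdh1 at -0.41 (limma adjusted p = 0.136). The summed T cell markers of these untreated tumors were 447 to 969 in the combination arm and 372 to 452 in control. Of the 13 markers 2 passed as higher, where 15.8% of all panel genes did. In control 10 of the 13 were at or below the limit in both samples.

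The direct test of whether the combination's effect differed between the kinds of tumor passed for no member, with a lowest limma adjusted p of 0.461. For Gmps the treated-minus-untreated difference of effects was -0.44 (95% interval -1.24 to 0.36), for Gart -0.54 (-1.20 to 0.12) and for Prps1 -0.09 (-1.46 to 1.28). A member that passed in 1 kind of tumor and not in the other was therefore not shown to differ between them.

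Treated tumors were next set against untreated tumors within each arm, without pairing by mouse. In the combination arm 9.11% of panel genes passed and no member did. Aprt came nearest, at 8.03, 8.72 and 8.16 in treated tumors and 7.27, 7.84 and 7.45 in untreated tumors (difference 0.79, SE 0.33, limma adjusted p = 0.130). Its samples did not overlap, as for 25.1% of panel genes in that direction. Prps1 differed by 0.78 (SE 0.40, limma adjusted p = 0.204) and Gart by -0.34 (SE 0.19, limma adjusted p = 0.252). In the other 3 arms no member and no panel gene passed in limma, with 100 (DC1), 14 (antibody) and 50 (control) genes at an unadjusted p under 0.05. Prps1 was higher in treated than in untreated tumors without overlap in all 4 arms, as 25.1%, 33.5%, 30.2% and 32.2% of panel genes were in the combination, DC1, antibody and control arms. Each share is for 1 arm on its own, and no share over all arms together is given. In the DC1 arm the nearest samples stood at 7.84 (treated) and 7.75 (untreated). The lowest untreated values of the DC1 arm (6.11) and the control arm (5.79) came from the samples of low depth. In the DC1 arm 3 members (Prps1, Hprt and Aprt) passed when untreated-tumor DC1 replicate 2 was left out, which leaves only the replicate of low depth.

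The enzymes differed in how widely they varied. Impdh1 spanned 0.64 log2 units over the 18 samples, with a residual SD within groups of 0.13. That SD lay at the 4.5th percentile of the 462 panel genes above the limit in every sample, the set used for both percentiles here. Prps1 spanned 3.16, with a residual SD of 0.53 at the 89.6th percentile, and was lowest in untreated-tumor control and highest in combination-treated tumors. Ordered by group mean, Prps1 stood at 8.38 in treated combination, 8.07 in treated DC1, 7.60 in untreated combination, 7.18 in treated antibody, 7.15 in treated control, 6.93 in untreated DC1, 6.74 in untreated antibody and 6.28 in untreated control. Each neighbouring pair of groups in this order overlapped in its samples.

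The group means of Gmps were 9.66 in treated control, 9.41 in untreated antibody, 9.39 in treated antibody, 9.27 in untreated control, 9.23 in treated DC1, 9.22 in untreated DC1, 8.72 in untreated combination and 8.67 in treated combination. Neighbours overlapped except treated control above untreated antibody and untreated DC1 above untreated combination. Gart stood at 9.61 in untreated combination, 9.49 in treated DC1, 9.44 in untreated DC1, 9.26 in treated combination, 9.13 in treated control, 8.93 in untreated control, 8.89 in treated antibody and 8.86 in untreated antibody, with every neighbouring pair overlapping. The 4 highest Gart means were thus those of the 4 groups from mice that received DC1. Of the other detected enzymes, group means ran from 6.89 in untreated control to 8.31 in treated combination for Aprt, from 7.14 in untreated control to 8.88 in treated DC1 for Hprt and from 8.07 in untreated control to 8.88 in treated DC1 for Impdh2. They ran from 7.26 in untreated combination to 7.72 in treated control for Ppat, and from 8.61 to 8.99 in the same pair of groups for Impdh1.

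Depth moved with 4 of the 8 detected enzymes. The lowest values of Prps1, Impdh2, Hprt and Aprt over all 18 samples were those of the 2 samples of low depth. Over 18 samples, with 100000 permutations and 8 relations tested, the correlation with log2 panel counts was r = 0.786 for Prps1 (permutation p = 6e-05, adjusted 0.00016; rho = 0.705, permutation p = 0.0011, adjusted 0.0022). It was r = 0.882 for Impdh2 (permutation p = 0.00014, adjusted 0.00028; rho = 0.726, permutation p = 0.00076, adjusted 0.00203). For Hprt r was 0.798 (rho = 0.748, permutation p = 0.00056, adjusted 0.00203), and for Aprt 0.749 (rho = 0.740, permutation p = 0.00046, adjusted 0.00203), both with a permutation p for r of 2e-05 (adjusted 8e-05), the smallest these permutations can give. Without the 2 samples farthest in depth, r was 0.644, 0.606, 0.656 and 0.751 in the same order of enzymes. Depth differed between the groups, so these values describe the samples and not an independent relation. Gmps (r = -0.005, permutation p = 0.946), Gart (0.214, permutation p = 0.401) and Impdh1 (0.262, permutation p = 0.275) showed no such relation in these samples, and Ppat (0.503, permutation p = 0.0428, adjusted 0.0685) lost it without those 2 samples (0.091).

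**Figure D3:**
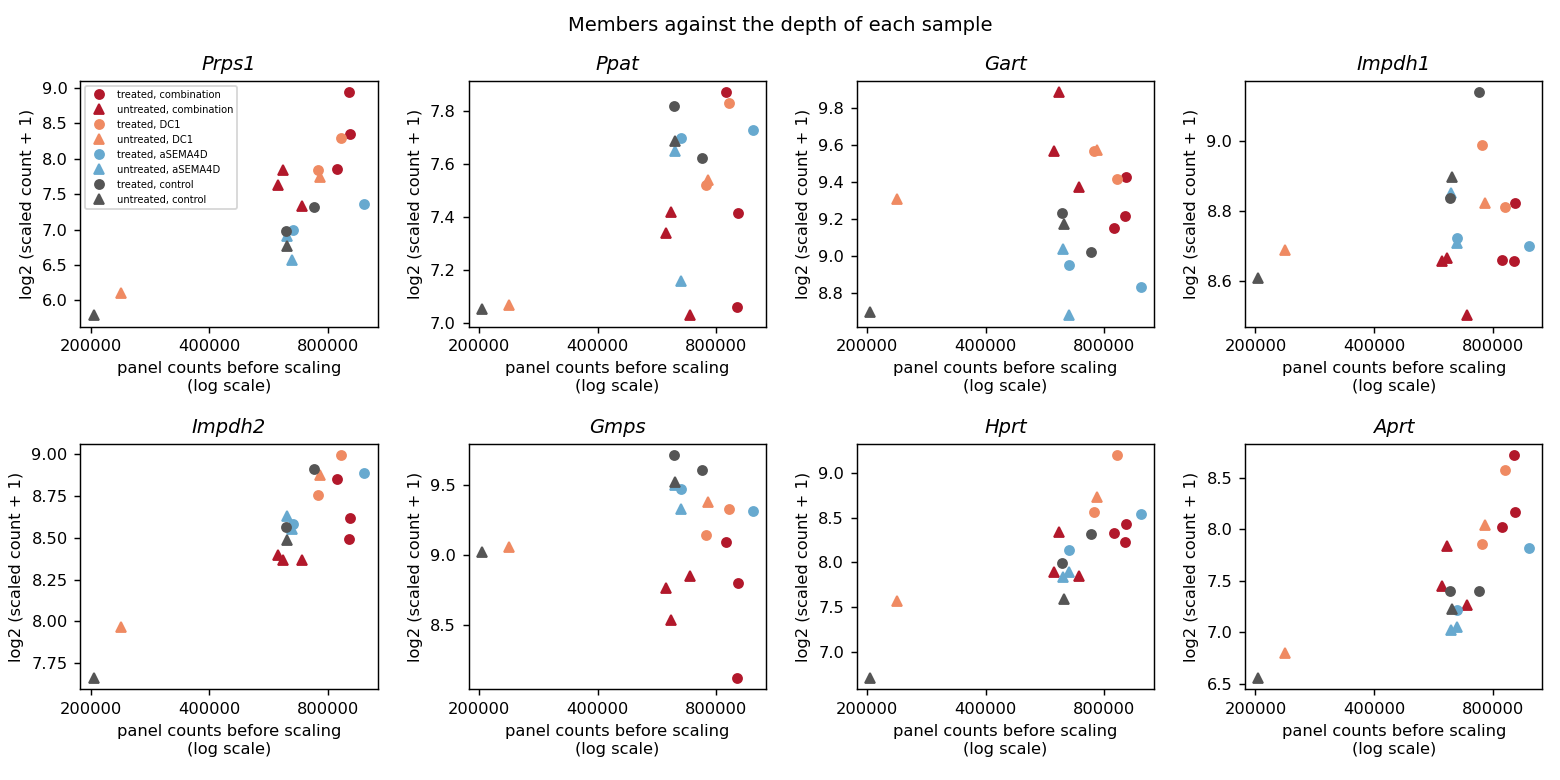
Deposited log2 (scaled count + 1) of the 8 detected enzymes against panel counts before scaling (log axis), with 1 point per sample, circles for treated and triangles for untreated tumors, coloured by arm. The 2 samples at the left, with 203509 and 238079 counts, have the lowest Prps1, Impdh2, Hprt and Aprt, while Gmps has its 5 lowest values in combination samples.

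Differences between members within a sample do not depend on how that sample was scaled. The pairs below were chosen after their values were seen and are given without a test. Prps1 minus Gmps ran from -1.24 to 0.82 in combination-treated tumors, from -1.30 to -1.03 with DC1, from -2.47 to -1.96 with the antibody and from -2.74 to -2.29 in control. In untreated tumors it ran from -1.52 to -0.69 in the combination arm, from -2.95 to -1.63 with DC1, from -2.76 to -2.59 with the antibody and from -3.24 to -2.75 in control. Every combination sample thus lay above every control sample of its kind of tumor, and in treated tumors the DC1 samples did too. These are differences of log2 counts from different probes, so only their change across samples can be read. Prps1 moved with depth (r = 0.786) and Gmps did not (r = -0.005), so their difference can still carry depth. Its lowest values over all samples came from those of low depth, untreated-tumor control replicate 2 (-3.24) and DC1 replicate 1 (-2.95). The part of depth was not tested.

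Gart minus Ppat, both of the building route, ran from 2.23 to 2.47 in untreated tumors of the combination arm, from 2.03 to 2.24 with DC1, from 1.39 to 1.52 with the antibody and from 1.48 to 1.64 in control. In treated tumors it ran from 1.28 to 2.15 in the combination, from 1.58 to 2.04 with DC1, from 1.10 to 1.25 with the antibody and was 1.40 and 1.41 in control. The untreated tumors of both arms that received DC1 lay above those of both arms that did not, whereas the treated combination samples overlapped control. Impdh2 minus Impdh1, a difference between the isoforms, ran from -0.20 to 0.19 in combination-treated tumors and from -0.27 to -0.23 in treated control.

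**Figure D4:**
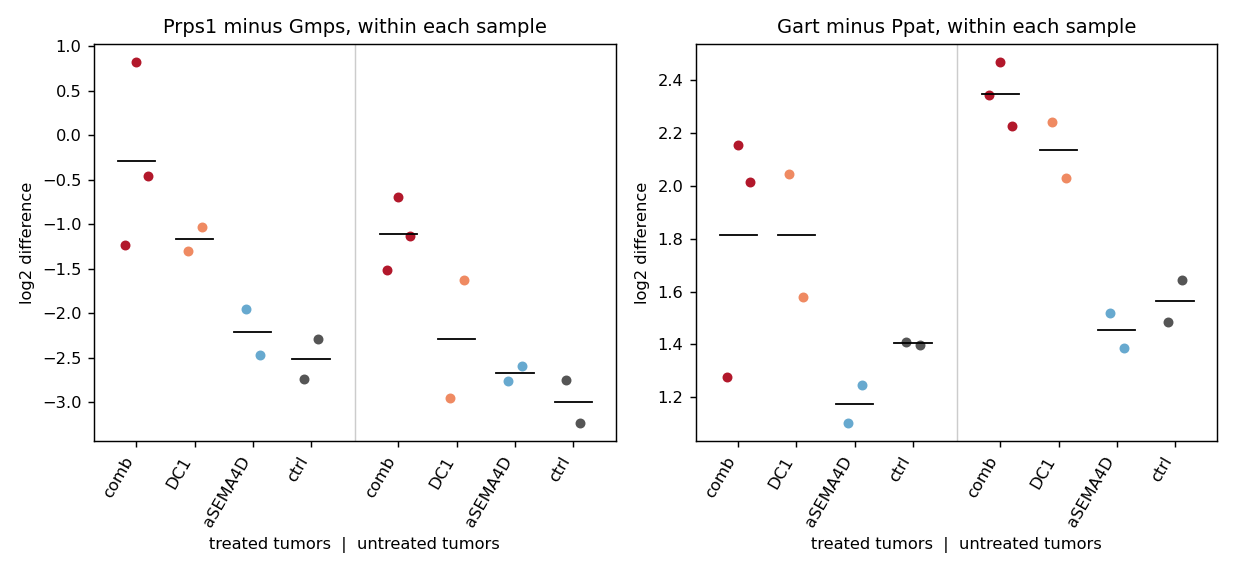
Differences in log2 (scaled count + 1) between enzymes within each sample, with 1 point per sample and a line at the group mean (comb, combination; ctrl, control). Prps1 minus Gmps (left panel) is above control in every combination sample of both kinds of tumor, and is lowest in the samples of low depth. Gart minus Ppat (right panel) is above 2.0 in the untreated tumors of the combination and DC1 arms and below 1.7 in those of the antibody and control arms.

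The members did not vary as 1 block. Over the 18 samples, which share groups and depth, the 28 pairs of the 8 detected enzymes had a median Pearson r of 0.457, against 0.287 over all pairs of the 462 genes above the limit in every sample. The highest was Prps1 with Aprt (0.952, and 0.928 for deviations from group means), followed by Impdh2 with Hprt (0.868). The lowest was Prps1 with Gmps (-0.485, and -0.054 within groups). Among 436 other detected panel genes, the pattern most like Prps1 was that of Lamtor2 (r = 0.971) and Ap2s1 (0.964), and Ap2s1 was also among the most like for Aprt (0.936, after Selenok at 0.941). Gmps was most like Exo1 (0.941), a DNA exonuclease, and Ube2c (0.895), a mitotic ubiquitin-conjugating enzyme. Gart was most like Cdca8 (0.921), a mitotic chromosome protein, and Tyms (0.920), thymidylate synthase. Impdh1 had no close match, with Ezh2 (0.645) and Nme1 (0.632) the most like, while Impdh2 was most like Uqcr10 (0.939) and Gpx4 (0.925), Hprt most like Hspe1 (0.958) and Cox7c (0.951), and Ppat most like Kpna2 (0.901) and Tecr (0.859).

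Other purine enzymes, mainly of nucleotide interconversion and breakdown, were listed beside the 9, and 9 of the 30 listed were on the panel. In combination-treated tumors 5 of these 9 rose against control, where 35.4% of panel genes passed as higher, and 4 did not pass. The list's median difference was 0.92 against 0.54 for all genes. Gda, guanine deaminase, stood at 10.20 ± 0.84 (SD, n = 3) in the combination and 8.54 ± 0.04 (SD, n = 2) in control, a 3.17-fold rise (limma adjusted p = 0.00473). Ampd3, an AMP deaminase, rose 2.87-fold (limma adjusted p = 0.0059), with 1 of 2 controls above the limit, and Ak1, an adenylate kinase, rose 1.89-fold (limma adjusted p = 0.00707). Xdh, which oxidises hypoxanthine and xanthine, rose 1.95-fold (limma adjusted p = 0.00761), and Nt5e, which makes adenosine from extracellular AMP, was the fifth (2.22-fold, limma adjusted p = 0.00852). After median centring 2 of the 9 passed as higher (Ampd3 and Gda) and Adk, adenosine kinase, as lower. Fewer panel genes passed as higher and more as lower there than on the deposited scale. The rise in T cell and macrophage markers stood beside this list in the same samples, and its part was not tested. In untreated tumors, where 15.8% of panel genes passed as higher, 1 of 9 rose (Ampd3, at least 1.57-fold, limma adjusted p = 0.0282), with both controls at or below the limit, and none passed after either centring.

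Pathways that feed or neighbour purine synthesis were described by the same counts, beside the 35.4% of all panel genes that passed as higher and the 3.39% that passed as lower in combination-treated tumors. Of 18 pyrimidine and deoxynucleotide enzymes, 2 rose and 1 fell in combination-treated tumors: CTP synthase Ctps rose 2.12-fold and mitochondrial thymidine kinase Tk2 1.59-fold, and the S-phase thymidine kinase Tk1 fell to a ratio of 0.474 (limma adjusted p = 0.0158, 0.0251 and 0.0128). After median centring none was higher and 6 were lower, so that the direction of the list depends on the scale. The shares above are for the deposited scale. On both centred scales fewer panel genes passed as higher and more as lower, with the counts given at the end. Of 7 pentose phosphate enzymes 3 rose (Pgd 2.23-fold, H6pd 2.36-fold and Rbks 1.55-fold), of which Pgd and H6pd also passed on both centred scales. Of 9 serine and folate one-carbon genes, 2 rose and 1 fell on the deposited scale. Glul, glutamine synthetase, rose 2.72-fold there and passed on neither centred scale. The folate receptor Folr1 fell to a ratio of 0.358 and passed as lower on all 3 scales. Of 7 MYC and mTORC1 regulators Mtor (2.89-fold), Akt1s1 (2.27-fold) and Atf4 (2.65-fold) rose. Mtor and Akt1s1 also passed as higher on both centred scales and Atf4 after housekeeping centring only, and Rptor, the mTORC1 scaffold, passed as lower after median centring (-0.97, limma adjusted p = 0.0282) and after housekeeping centring (-0.76, limma adjusted p = 0.0433). Of 11 cell cycle genes none rose and 5 fell, among them Ube2t (ratio 0.412), Ube2c (0.435), Ccna2 (0.550) and Plk1 (0.543), and 8 fell on both centred scales.

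In untreated tumors 15.8% of all panel genes passed as higher on the deposited scale, and fewer did on both centred scales. Of the 18 pyrimidine enzymes Tk2 (1.73-fold), Nme2 (1.79-fold), Dguok (1.46-fold) and Ctps (1.96-fold) rose, and none passed after either centring. Rbks (1.97-fold) and Pgd (1.86-fold) of 7 pentose phosphate enzymes rose on the deposited scale and on neither centred scale. Mtor (2.92-fold) and Akt1s1 (2.48-fold) rose on all 3 scales, and Atf4 (3.27-fold) on the deposited and housekeeping scales, while Rptor passed as lower on both centred scales. Of 11 cell cycle genes Cdca5 passed as higher (at least 3.16-fold, limma adjusted p = 0.0213), with both controls at or below the limit. Without the 2 samples of low depth none of the genes in these lists passed in untreated tumors, a fit with 1 control sample.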

How the data were processed

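RNA from 18 tumors was counted with a NanoString nCounter panel for mouse metabolic pathways (768 genes). The values are log2 values deposited by the authors, and limma is the only tool named, per the submitters' processing notes, with its role and version not given in the sources used here. From the values, 12 columns step by 1 factor per sample and 6 hold whole numbers, so depth was taken as panel counts after the factor was removed, and whether those 6 were scaled is not settled. All combination samples are scaled columns. Groups came from the titles.

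Group differences were estimated on these values, with no rescaling, by limma 3.58.1 (R 4.3.3, lmFit and eBayes), with 1 mean for each of 8 groups, and p-values were adjusted (Benjamini-Hochberg) over 768 genes within each of 17 comparisons. Correlations with depth used Python 3.11.15 and scipy 1.17.1. All 9 members were named; from every other list of genes up to 4 with the smallest p past the threshold were named, and Nt5e, Adk and genes given for other scales were named after their values were seen. Some genes that met this rule are not reported here. The 2 genes most like each member were named by Pearson r. Members and lists were chosen with earlier results of these data known. Alternatives were median and housekeeping centring, a pseudocount of 20 in place of 1, a filter on dim genes, replicate and column-kind blocks, trended robust moderation, only the groups compared, a depth covariate, leaving out both samples of low depth, and leaving out each sample. The fit was tested on simulated data. Folds on the log2(count + 1) scale understate changes of dim genes, and "at least" sets a dim group at its limit. Counting limits cover counting error only.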

Additional observations from a re-analysis of the deposited data

Results flagged for a closer look

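With the antibody alone, the mean of Gmps lay on opposite sides of control in the 2 kinds of tumor, and neither difference passed (limma adjusted p = 1 in treated and 0.997 in untreated tumors). In treated tumors both antibody samples lay below the control mean (log2 differences of -0.35 and -0.19, mean -0.27). In untreated tumors both lay above it (0.06 and 0.23, mean 0.14) but within the range of the control samples. The difference between these effects, treated minus untreated, was -0.413 (SE 0.41), and the interaction in limma did not pass (adjusted p = 0.999).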

How the results depend on the processing

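Of 17 comparisons, 13 gave 0 members past the threshold on the deposited values and under all 10 alternatives other than leaving out 1 sample, and no value of Gmps, Prps1 or Gart that passed changed sign. Counts of members moved by 1 or 2 in the rest. Alternatives with a depth covariate or without both samples of low depth were chosen after seeing the data. For combination minus control in treated tumors (2 on the deposited scale), 1 passed with a replicate block and 0 when only the groups compared were fitted, while 3 passed after median centring (Ppat, Impdh1 and Gmps), with a column-kind block and without both samples of low depth (Prps1, Gmps and Aprt in both). For combination minus antibody in treated tumors (1), 3 passed after median centring, 2 with a pseudocount of 20, with genes above the limit in at least 2 samples, with trended robust moderation, with the depth covariate and without both samples of low depth, and 0 with a replicate block or only the groups compared. For combination minus control in untreated tumors (1), 2 passed after median centring, with the filter on dim genes and with trended robust moderation, 3 with a column-kind block, and 0 after housekeeping centring, with a replicate block, with the depth covariate, without both samples of low depth and with only the groups compared. For combination minus antibody in untreated tumors (1), 0 passed after housekeeping centring, with a replicate block or with only the groups compared, and after median centring the 1 that passed was Gmps and not Gart. Leaving out 1 sample gave 0 to 3 in treated and 0 to 3 in untreated tumors against control, 0 to 2 against the antibody in each, and 0 to 3 for treated minus untreated tumors in the DC1 arm. Fitting only the groups compared leaves fewer samples for the spread, and the cause of the other changes was not tested.

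Replicate numbers were not taken to pair samples: same-numbered deviations correlated from -0.75 to 0.71, with 19 of 57 over 0.1 (median -0.02). Between treated and untreated tumors of the same arm the median was 0.30, from -0.18 to 0.71, with 5 of 9 over 0.1. Over all genes, the count for combination minus control in treated tumors was 298 (272 higher, 26 lower), and after median centring 245 (144 higher, 101 lower), after housekeeping centring 265 (193 and 72) and with only the groups compared 155. In untreated tumors it was 129 (121 higher, 8 lower), after median centring 47 (24 and 23), after housekeeping centring 48 (39 and 9), with a replicate block 71, with a column-kind block 198, with the depth covariate 53, with only the groups compared 4 and without both samples of low depth 1. Against the antibody, median centring gave 216 (112 and 104) in place of 283 (265 and 18) and housekeeping centring 240 (184 and 56) in treated tumors, where only the groups compared gave 121. In untreated tumors the count was 96 (93 and 3), after median centring 34 (23 and 11), after housekeeping centring 59, with a replicate block 55, with the depth covariate 151 and with only the groups compared 1. With 2 or 3 samples in a group and detected members at 21 to 865 counts before scaling, the intervals given show how widely each difference is bounded.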
